A study of Mus musculus with 16 samples.

Results

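The examined set holds 10 genes of leukocyte cytoskeleton and migration, Was, Coro1a, Fmnl1, Msn, Dock2, Dock8, Dock10, Rasal3, Itgb2 and Rgs1, in RNA-seq libraries of mouse colonocytes, the absorptive cells of the colon lining. They were taken from the table of 54392 gene symbols by symbol, as a list put together from genes whose diet difference in these libraries was already known. The diet differences of the 10 genes are therefore given as a description, with their standard errors and without a test. All 10 passed the filter on low counts that kept 14803 genes.

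C57BL/6 mice, a standard inbred strain, were fed for 3 weeks a diet of fish oil, rich in n-3 fatty acids, with pectin, a fibre that gut bacteria ferment, or one of corn oil, rich in n-6 fatty acids, with cellulose, a fibre they ferment poorly. The cell type is given as colonocyte, while the protocol speaks of RNA of the colon, and the sources used here give neither the isolation of the cells nor the age of the mice. Each library was made from 200 ng of total RNA with a stranded mRNA kit. Library names came in 2 forms, one beginning with GC and one not, with a meaning that the sources used here do not give. The groups were fish oil/pectin with GC names (5 libraries, replicates 3 to 7), fish oil/pectin with other names (2 libraries, replicates 1 and 2), corn oil/cellulose with GC names (5 libraries, replicates 5 to 9) and corn oil/cellulose with other names (4 libraries, replicates 1 to 4). The labels call them biological replicates but name no mouse, and every p-value below therefore measures spread among libraries that could be technical in part.

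Libraries held 13996288 to 19512755 counts. By their counts on Y-linked genes, 1 of 5 fish oil/pectin and 2 of 5 corn oil/cellulose libraries with GC names were male. All 6 libraries with other names were male. Female libraries thus occurred only with GC names, and name form and sex can be told apart only through the few male GC-named libraries. The 13 listed markers of colon epithelium, all measured, summed to 22285 to 35044 CPM (counts scaled to library size with TMM factors) over the 16 libraries. Markers of leukocytes were present at far lower levels, and their values stand after those of the genes.

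Leukocytes crawl by pushing actin filaments against the membrane at the front of the cell, while integrins grip the substrate and chemoattractant receptors set the direction. The GTPases Rac and Cdc42 join the receptors to actin, switched on by exchange factors (the Dock proteins among them) and off by GTPase-activating proteins. The colon epithelium normally holds intraepithelial lymphocytes, which lie between the epithelial cells, and the 10 genes are best known from blood cells, although several, Dock8 and Msn among them, are also used outside them.

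The sequences just upstream of the transcription starts are shown for 3 genes, chosen among those with a motif match, as examples of the regulatory regions of these leukocyte genes. Motifs searched on both strands were AGGAAG, the core bound by ETS factors such as the blood cell factor PU.1, and TGTGGT, the core bound by RUNX factors. Capitals mark matches on either strand (CTTCCT is AGGAAG read from the opposite strand). Each run is the 250 bases before an annotated start, written along the gene's own strand, from RefSeq on GRCm38.p6. It is chrX:8090492-8090741 (minus strand) for Was, chr11:103170888-103171137 (plus strand) for Fmnl1 and chr11:34783906-34784155 (minus strand) for Dock2.
Was: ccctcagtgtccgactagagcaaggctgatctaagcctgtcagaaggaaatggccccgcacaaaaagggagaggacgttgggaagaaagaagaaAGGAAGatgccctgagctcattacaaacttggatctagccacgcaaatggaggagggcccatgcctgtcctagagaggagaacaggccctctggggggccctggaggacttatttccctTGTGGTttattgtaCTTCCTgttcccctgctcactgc
Fmnl1: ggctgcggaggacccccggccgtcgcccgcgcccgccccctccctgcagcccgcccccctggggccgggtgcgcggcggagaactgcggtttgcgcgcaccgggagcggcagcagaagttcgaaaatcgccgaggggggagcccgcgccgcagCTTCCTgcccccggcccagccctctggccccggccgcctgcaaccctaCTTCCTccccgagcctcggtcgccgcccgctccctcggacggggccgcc
Dock2: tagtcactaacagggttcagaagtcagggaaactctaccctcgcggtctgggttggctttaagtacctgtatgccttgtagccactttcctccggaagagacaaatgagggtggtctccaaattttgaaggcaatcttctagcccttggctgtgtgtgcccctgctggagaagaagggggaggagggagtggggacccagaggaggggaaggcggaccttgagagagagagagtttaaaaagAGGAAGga
Of the 10 genes, 8 had an entry, with 11 windows in all, since a gene can have several starts. The ETS core was found in 5 of the 11 windows, belonging to 5 of the 8 genes, and in 29.5% of all 32851 windows of this length. The RUNX core was found in 1 of the 11, that of Was, and in 14% of all windows. A match is a run of letters and not a measured binding site.

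Among genes that build and bind actin, Was, Coro1a, Fmnl1 and Msn were each lower with fish oil/pectin in the GC-named libraries, and their groups overlapped in the other libraries. Was (ENSMUSG00000031165.6, chromosome X, 8081453 to 8090498 on GRCm38) encodes the Wiskott-Aldrich syndrome protein, which sets off branched actin growth through the Arp2/3 complex in blood cells. Was had 0.660, 0.196, 0.430, 0.329 and 0.397 CPM in the 5 GC-named fish oil/pectin libraries, against 1.36, 1.60, 1.15, 1.60 and 1.93 CPM in the 5 GC-named corn oil/cellulose libraries. The other libraries had 0.342 and 0.0550 CPM with fish oil/pectin and 0.050, 0.401, 0.240 and 0.206 CPM with corn oil/cellulose. The GC-named groups did not overlap and those of the other libraries did. Was rests on few reads, 1 to 31 per library, and its difference was -1.90 ± 0.35 on the log2 scale (± SE, fish oil/pectin over corn oil/cellulose) in the GC-named libraries and -0.15 ± 0.71 in the other ones.

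Coro1a (ENSMUSG00000030707.15, chromosome 7, 126699773 to 126707787) encodes coronin 1A, which binds actin and the Arp2/3 complex in leukocytes. It had 4.44, 4.70, 3.44, 4.40 and 5.78 CPM in GC-named fish oil/pectin libraries, against 10.2, 9.27, 7.15, 15.7 and 14.4 CPM in GC-named corn oil/cellulose libraries. In the other libraries it had 2.00 and 2.42 CPM with fish oil/pectin and 1.60, 2.81, 2.52 and 2.75 CPM with corn oil/cellulose. The highest GC-named fish oil/pectin library thus stayed below the lowest GC-named corn oil/cellulose library, and the difference was -1.32 ± 0.21, a smaller one than that of Was, with -0.12 ± 0.33 in the other libraries. Fmnl1 (ENSMUSG00000055805.15, chromosome 11, 103171107 to 103198901) encodes a formin, which elongates unbranched actin filaments. It had 1.26, 1.24, 1.18, 1.31 and 1.42 CPM in GC-named fish oil/pectin libraries, a narrow range, against 5.70, 6.12, 4.28, 7.68 and 6.99 CPM in GC-named corn oil/cellulose libraries. With other names it had 0.571 and 1.05 CPM with fish oil/pectin and 1.25, 1.03, 1.02 and 1.51 CPM with corn oil/cellulose. Its log2 difference of -2.26 ± 0.19 in GC-named libraries was the lowest of the 10 genes, and that in the other libraries was -0.56 ± 0.31.

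Msn (ENSMUSG00000031207.16, chromosome X, 96096042 to 96168552) encodes moesin, which ties actin to the plasma membrane. It had 2.28, 2.16, 1.51, 1.97 and 1.42 CPM in GC-named fish oil/pectin libraries, against 7.00, 8.56, 7.02, 11.3 and 8.18 CPM in GC-named corn oil/cellulose libraries. Outside the GC-named libraries it had 2.23 and 2.04 CPM with fish oil/pectin and 1.50, 1.95, 2.22 and 1.92 CPM with corn oil/cellulose. The fish oil/pectin libraries of both name forms and the corn oil/cellulose libraries with other names thus lay close together, with the GC-named corn oil/cellulose libraries above all of them. The log2 difference was -2.18 ± 0.18 in GC-named libraries and 0.17 ± 0.26 in the other ones, and it stayed above 0 there, from 0.068 to 0.27, when each library was left out in turn.

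**Figure D1:**
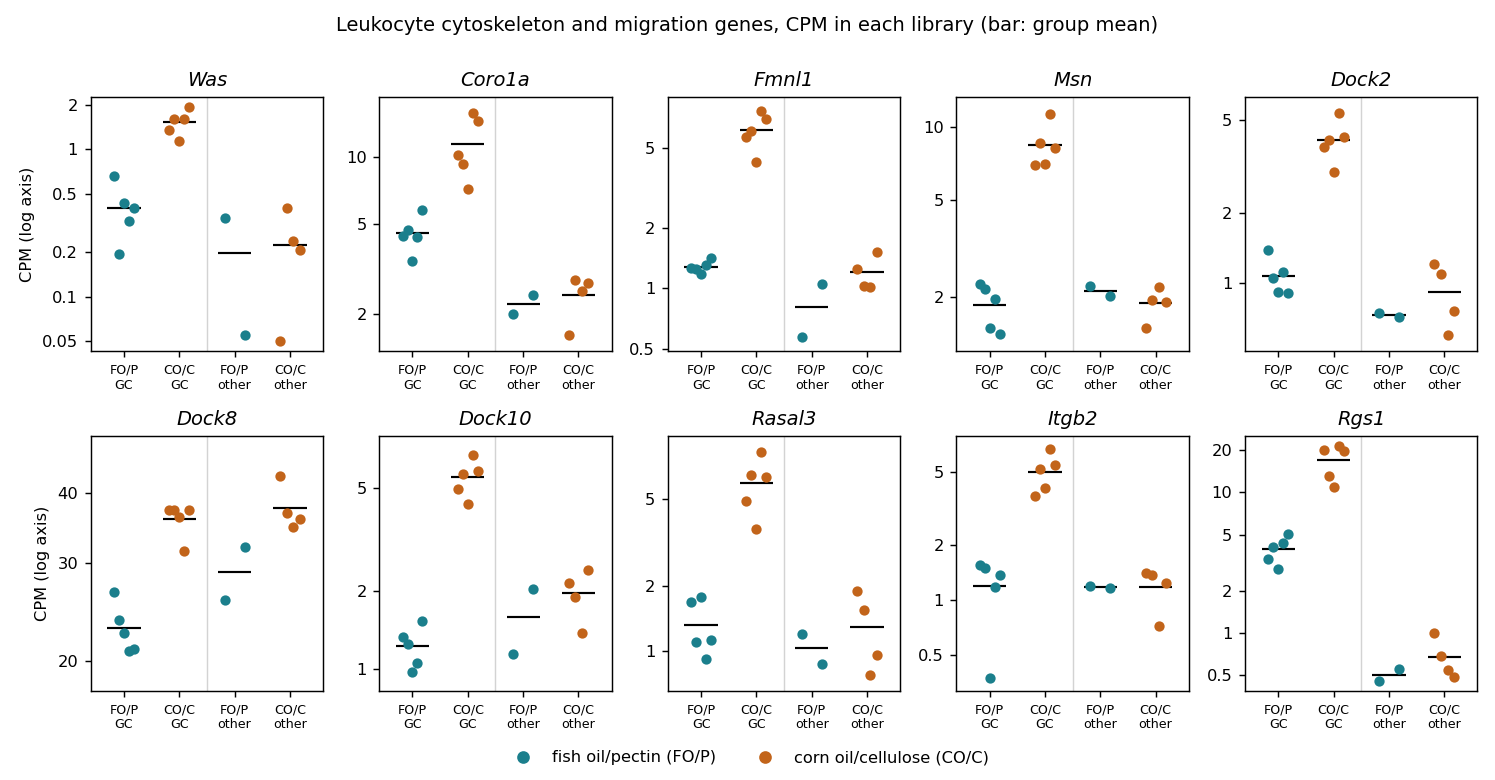
CPM of each of the 10 genes in every library (log axis), with fish oil/pectin left of corn oil/cellulose within the GC-named and within the other libraries; bars are group means. For 9 of the 10 genes the GC-named corn oil/cellulose libraries lie above all other groups, whereas Dock8 overlaps between the GC-named and other corn oil/cellulose libraries.

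The 3 Dock genes encode exchange factors that switch on Rac or Cdc42. Dock2 (ENSMUSG00000020143.15, chromosome 11, 34226815 to 34783892) acts on Rac downstream of chemokine receptors in lymphocytes. It had 1.38, 1.05, 0.914, 1.12 and 0.907 CPM in GC-named fish oil/pectin libraries, against 3.84, 4.10, 3.00, 5.33 and 4.24 CPM in GC-named corn oil/cellulose libraries. The other libraries had 0.742 and 0.715 CPM with fish oil/pectin and 1.20, 1.09, 0.599 and 0.755 CPM with corn oil/cellulose. The GC-named groups were apart and the others overlapped, with log2 differences of -1.94 ± 0.20 and -0.34 ± 0.34. Dock10 (ENSMUSG00000038608.15, chromosome 1, 80501073 to 80758527) acts on Cdc42 and Rac. It had 1.32, 1.24, 0.968, 1.05 and 1.53 CPM in GC-named fish oil/pectin libraries, against 4.96, 5.64, 4.34, 6.72 and 5.80 CPM in GC-named corn oil/cellulose libraries. The other libraries had 1.14 and 2.04 CPM with fish oil/pectin and 2.15, 1.89, 1.38 and 2.40 CPM with corn oil/cellulose. Here too the GC-named groups were apart and the others overlapped, with log2 differences of -2.16 ± 0.20 in GC-named and -0.29 ± 0.28 in other libraries.

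Dock8 (ENSMUSG00000052085.7, chromosome 19, 24999534 to 25202432) acts on Cdc42, and its loss in humans causes an immunodeficiency in which lymphocytes break up as they migrate. It had 26.6, 23.7, 22.4, 20.8 and 21.0 CPM in GC-named fish oil/pectin libraries, against 37.2, 37.2, 36.2, 31.5 and 37.2 CPM in GC-named corn oil/cellulose libraries. In the other libraries it had 25.7 and 32.0 CPM with fish oil/pectin and 42.8, 36.8, 34.8 and 35.8 CPM with corn oil/cellulose. Dock8 was the 1 gene of the 10 whose fish oil/pectin libraries lay below every corn oil/cellulose library in both name forms, and its log2 differences, -0.65 ± 0.09 in GC-named and -0.38 ± 0.12 in other libraries, were close to each other. The difference between those values was -0.26 ± 0.15. Its CPM were also the highest of the 10 genes.

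Rasal3 (ENSMUSG00000052142.15, chromosome 17, 32390659 to 32403583) encodes a GTPase-activating protein that switches Ras off, known from T cells. It had 1.68, 1.11, 1.77, 0.920 and 1.13 CPM in GC-named fish oil/pectin libraries, against 4.90, 6.48, 3.64, 8.27 and 6.30 CPM in GC-named corn oil/cellulose libraries. The other libraries had 1.20 and 0.880 CPM with fish oil/pectin and 1.90, 1.55, 0.779 and 0.961 CPM with corn oil/cellulose. The GC-named groups were apart by -2.15 ± 0.26 on the log2 scale and the other groups, which overlapped, by -0.34 ± 0.41. An antisense transcript, CT485616.1, overlaps 13% of the exon bases of Rasal3 on the opposite strand, and since the strand setting of the counting is not given, its reads cannot be told apart. Antisense or small genes overlap 4.03% of the exon bases of Dock2, 2.46% of Fmnl1 and 2.15% of Msn, and Bola2 overlaps 0.934% of Coro1a.

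Itgb2 (ENSMUSG00000000290.13, chromosome 10, 77530252 to 77565708) encodes the beta chain shared by the leukocyte integrins, which pairs with the Itgal chain to bind ICAM on other cells. It had 1.56, 1.50, 0.376, 1.18 and 1.36 CPM in GC-named fish oil/pectin libraries, against 3.72, 5.17, 4.08, 6.67 and 5.43 CPM in GC-named corn oil/cellulose libraries. Elsewhere it had 1.20 and 1.16 CPM with fish oil/pectin and 1.40, 1.38, 0.719 and 1.24 CPM with corn oil/cellulose. Replicate 5 of the GC-named fish oil/pectin libraries was the lowest, on 7 reads, and the difference was -2.08 ± 0.27 in GC-named libraries and -0.01 ± 0.41 in the other ones.

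Rgs1 (ENSMUSG00000026358.13, chromosome 1, 144242296 to 144249242) encodes a regulator of G-protein signalling that speeds the switching-off of Gi proteins and so dampens chemoattractant receptors. It had 3.36, 4.05, 2.85, 4.34 and 5.04 CPM in GC-named fish oil/pectin libraries, against 20.1, 13.1, 10.8, 21.4 and 19.8 CPM in GC-named corn oil/cellulose libraries. The other libraries had 0.456 and 0.550 CPM with fish oil/pectin and 1.00, 0.688, 0.539 and 0.481 CPM with corn oil/cellulose. Diet separated the GC-named groups, with a log2 difference of -2.12 ± 0.20, against -0.45 ± 0.48 in the other libraries, but name form separated them further: within both diets every GC-named library lay above every other one. The GC-named mean was 7.80 times that of the other libraries with fish oil/pectin and 25.2 times with corn oil/cellulose.

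Across the 10 genes, log2 differences in the GC-named libraries ran from -2.26 (Fmnl1) to -0.65 (Dock8) with a median of -2.10, against a median of -0.00 over all 14803 genes. All 10 were lower at an adjusted p under 0.05, as were 21.6% of all genes, and in all 10 every fish oil/pectin library lay below every corn oil/cellulose library, as in 13.6% of all genes. These genes were chosen on this contrast, so the counts describe the choice. In the other libraries the median was -0.32, against -0.02 over all genes, and 9 of 10 values were below 0. With 2 fish oil/pectin libraries, these values moved with single ones: Was ran from -1.86 without fish oil/pectin replicate 1 to 0.62 without replicate 2, Fmnl1 from -1.06 without replicate 2 to -0.19 without replicate 1, and Dock10 from -0.77 without replicate 2 to 0.062 without replicate 1. None of the 10 was called there, where edgeR called 0% of all genes in either direction (2419 of 14803 had an unadjusted p under 0.05; DESeq2 called 100 genes and limma voom 1720, with 0 and 1 of the 10 genes among them). There the fish oil/pectin libraries lay wholly below the corn oil/cellulose ones for 1 gene, Dock8, as in 17.3% of all genes, and overlapped for the other 9. The difference between the diet effects, GC-named minus other, had a median of -1.72 and ran from -2.35 (Msn) to -0.26 (Dock8). It was called for 6 of the 10, as lower, and for 3.84% of all genes (8.03% in either direction); it rests on the same contrasts as the choice. The count of 6 was 1 without fish oil/pectin replicate 2, and 3 without fish oil/pectin replicate 1 or corn oil/cellulose replicate 3. Over all genes, 6, 150 and 194 were called lower in these 3 fits, in that order, against 569 with every library.

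**Figure D2:**
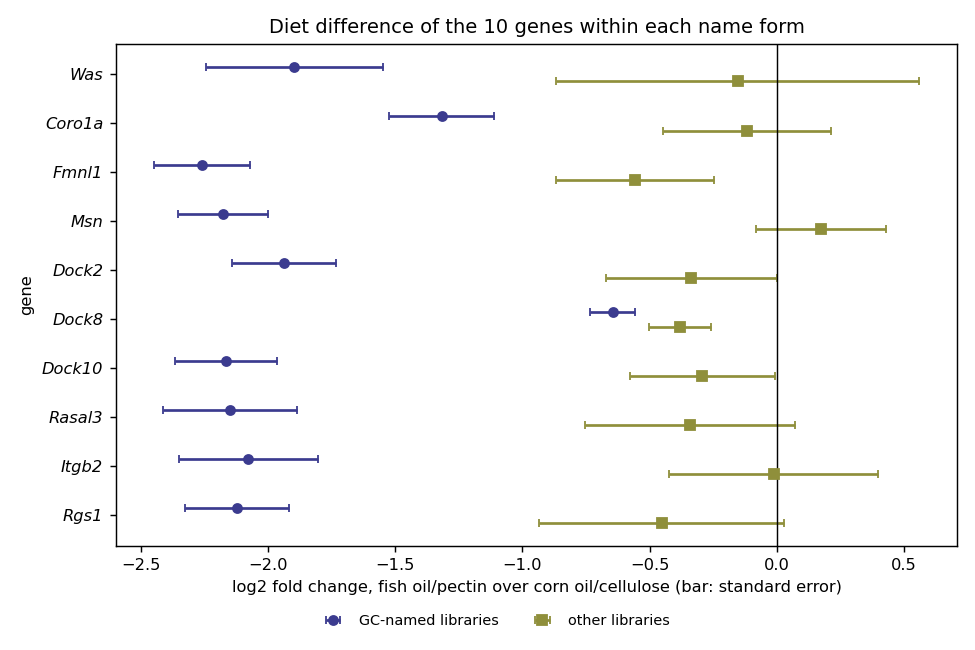
Log2 fold change of the 10 genes, fish oil/pectin over corn oil/cellulose, with standard errors, in GC-named libraries (circles) and other libraries (squares). In GC-named libraries 9 of the genes lie between -2.26 and -1.32 and Dock8 at -0.65; in the other libraries the values lie between -0.56 and 0.17.

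The same values, from which the genes were chosen, can be set side by side between the name forms, as a description. GC-named corn oil/cellulose libraries lay above all other-named corn oil/cellulose libraries for 9 of the 10 genes (10.3% of all genes, with 9.07% wholly lower), by ratios of means of 2.81 (Dock10) to 25.2 (Rgs1), with Dock8 at 0.954 and overlapping. Of the fish oil/pectin libraries, the GC-named ones lay above the other ones for 4 genes, Fmnl1, Dock2, Rgs1 and Coro1a (24.4% of all genes, with 23.2% wholly lower), and overlapped them for 6. Those ratios were 0.769 for Dock10, 0.876 for Msn, 1.02 for Itgb2, 2.06 for Coro1a and 7.80 for Rgs1.

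Levels per kilobase of exon put the genes in nearly the same order in both GC-named groups. With fish oil/pectin, Dock8 led with a mean of 2.28 CPM per kb, before Coro1a with 1.64, Rgs1 with 0.565 and Itgb2 with 0.392. With corn oil/cellulose, Coro1a led with a mean of 4.07 CPM per kb, before Dock8 with 3.56, Rgs1 with 2.46 and Itgb2 with 1.64. Msn, Fmnl1 and Rasal3 followed in both, at 0.263 to 0.295 with fish oil/pectin and 1.21 to 1.33 with corn oil/cellulose, and the libraries of these 3 overlapped. Was, Dock2 and Dock10 were lowest, Dock10 with 0.0669 CPM per kb with fish oil/pectin and 0.301 with corn oil/cellulose.

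Within the GC-named corn oil/cellulose group the genes moved largely together. Replicate 8 was the highest library for 8 of the 10 genes and replicate 7 the lowest for 7. Dock8 went the other way and was lowest in replicate 8. The summed pan-leukocyte markers, given below, were likewise highest in replicate 8 (118 CPM) and lowest in replicate 7 (85.8 CPM). So were the T cell markers (74.5 and 33.4 CPM), so this order was not particular to the 10 genes. The share of all genes with these extremes is not given. In the GC-named fish oil/pectin group the highest library was replicate 3 for 5 genes and replicate 7 for 4, and the lowest was replicate 5 for 5. As a description over all 16 libraries with group means removed, the correlation of each gene with the mean of the others was 0.75 for Dock2, 0.66 for Dock10 and 0.64 for Itgb2. It was 0.30 for Msn, 0.02 for Dock8 and -0.03 for the sparsely counted Was. Depth and scaling are shared by the genes of a library.

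In these bulk libraries, fewer leukocytes and less RNA of a gene per leukocyte cannot be told apart. Ptprc, the CD45 phosphatase that all leukocytes carry, averaged 5.95 ± 1.19 CPM in GC-named fish oil/pectin libraries and 23.6 ± 4.88 CPM in GC-named corn oil/cellulose libraries (SD, n = 5 each). With other names it averaged 5.67 ± 0.780 CPM in fish oil/pectin libraries (n = 2) and 5.39 ± 0.888 CPM in corn oil/cellulose libraries (n = 4). Divided by Ptprc, library by library, Dock2 averaged 0.182 ± 0.0225 in GC-named fish oil/pectin libraries and 0.174 ± 0.0173 in GC-named corn oil/cellulose libraries. On the same scale Itgb2 averaged 0.195 ± 0.0645 with fish oil/pectin and 0.213 ± 0.0344 with corn oil/cellulose, and Msn averaged 0.315 ± 0.0305 with fish oil/pectin and 0.357 ± 0.0377 with corn oil/cellulose. Rgs1 averaged 0.677 ± 0.179 with fish oil/pectin and 0.721 ± 0.147 with corn oil/cellulose. Coro1a averaged 0.784 ± 0.188 with fish oil/pectin and 0.476 ± 0.103 with corn oil/cellulose. These ratios overlapped between the diets for 9 of the 10 genes. Dock8 was the exception, with 3.96 ± 0.780 per Ptprc in fish oil/pectin and 1.58 ± 0.345 in corn oil/cellulose libraries, every fish oil/pectin library being higher, as in 89.7% of all genes; 0.00676% of all genes were lower in every fish oil/pectin library on this scale. Rgs1 per Ptprc stayed low in the other libraries, at 0.0905 ± 0.0241 with fish oil/pectin and 0.126 ± 0.0344 with corn oil/cellulose. The ratios depended on the divisor. Divided by the summed CPM of 14 T cell markers in GC-named libraries, Fmnl1 averaged 0.0578 ± 0.00915 with fish oil/pectin and 0.116 ± 0.00996 with corn oil/cellulose. In the same order, Rgs1 averaged 0.173 ± 0.0250 and 0.317 ± 0.0470, Coro1a 0.201 ± 0.0157 and 0.208 ± 0.0188, and Dock8 1.05 ± 0.246 and 0.715 ± 0.241. Dock2 averaged 0.0490 ± 0.0131 and 0.0774 ± 0.00848, Itgb2 0.0522 ± 0.0208 and 0.0951 ± 0.0189, and Msn 0.0856 ± 0.0245 and 0.160 ± 0.0318. Means of Rasal3 (0.0616 and 0.109), Dock10 (0.0541 and 0.105) and Was (0.0184 and 0.0292) were lower with fish oil/pectin too. The share of all genes on this scale is not given.

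Pan-leukocyte and lymphocyte markers fell along with the 10 genes in the GC-named libraries. Over all genes 21.6% fell and 22.2% rose there, and edgeR called 0% in the other libraries. The 8 pan-leukocyte markers summed to 55.3 to 67.5 CPM in GC-named fish oil/pectin libraries and 85.8 to 118 CPM in GC-named corn oil/cellulose libraries, and 7 of the 8 fell. Ptpn6, a phosphatase that epithelial cells also express, made up much of those sums, with means of 45.4 CPM in the fish oil/pectin and 48.6 CPM in the corn oil/cellulose libraries. The sums were 46.3 to 47.5 CPM with fish oil/pectin and 44.9 to 49.8 CPM with corn oil/cellulose in the other libraries, where none of the 8 was called. Of 14 T cell markers, 10 were measured and all 10 fell in GC-named libraries, where the list summed to 17.6 to 32.6 CPM with fish oil/pectin and 33.4 to 74.5 CPM with corn oil/cellulose, the separation being narrow. Of 12 markers of intraepithelial lymphocytes, natural killer cells and innate lymphoid cells, 11 were measured and 10 fell, with sums of 18.6 to 42.9 CPM with fish oil/pectin and 40.5 to 83.6 CPM with corn oil/cellulose, which overlapped.

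Other leukocyte lists differed from these. The calls below are again for GC-named libraries, where 21.6% of all genes fell and 22.2% rose. Of 11 macrophage markers 7 were measured and 1 fell; their sums were 45.7 to 64.3 CPM in GC-named fish oil/pectin libraries and 40.5 to 53.6 CPM in GC-named corn oil/cellulose libraries, largely from Cd14, and Cd163 was at 0 in every group. None of the 8 B cell or 7 dendritic cell markers passed the filter. The B cell list summed to at most 0.605 CPM in fish oil/pectin libraries, with Pax5 and Fcer2a at 0, and at most 1.49 CPM in corn oil/cellulose libraries. Of 6 neutrophil markers 1 was measured and not called, and Cxcr2 and Retnlg were at 0 in every group. Of 7 mast cell markers 4 were measured and 3 fell, with sums, largely of Kit, of 43.7 to 70.2 CPM in GC-named fish oil/pectin and 75.3 to 115 CPM in GC-named corn oil/cellulose libraries. Which cells the Kit and Cd14 reads came from was not tested, so these sums do not measure mast cells or macrophages alone. Of 5 plasma cell, 7 endothelial and 6 fibroblast markers, 1, 3 and 1 were measured and none was called, and none of 6 smooth muscle markers passed the filter. Of the 9 tuft cell markers 8 were measured and none was called, and of the 13 epithelial markers 7 rose, their sums being 29589 to 35044 CPM in GC-named fish oil/pectin and 24604.5 to 27209 CPM in GC-named corn oil/cellulose libraries. With a pan-leukocyte score as a covariate, which itself separated the GC-named diets without overlap, none of the 10 genes was called. Of all 14803 genes 96 were called there, 27 of them lower, against 6484 without the covariate. The diet differences of the 10 genes had a median of -0.90 and wide errors. They were -1.77 ± 0.91 for Rasal3, -1.26 ± 1.21 for Was, -1.001 ± 0.51 for Msn, -0.92 ± 0.66 for Dock2 and -0.91 ± 0.30 for Dock8. Fmnl1 had -0.89 ± 0.55, Dock10 -0.88 ± 0.60, Rgs1 -0.26 ± 0.55, Itgb2 0.030 ± 0.74 and Coro1a 0.96 ± 0.45. The part of cell numbers in the differences of the 10 genes was not tested.

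**Figure D3:**
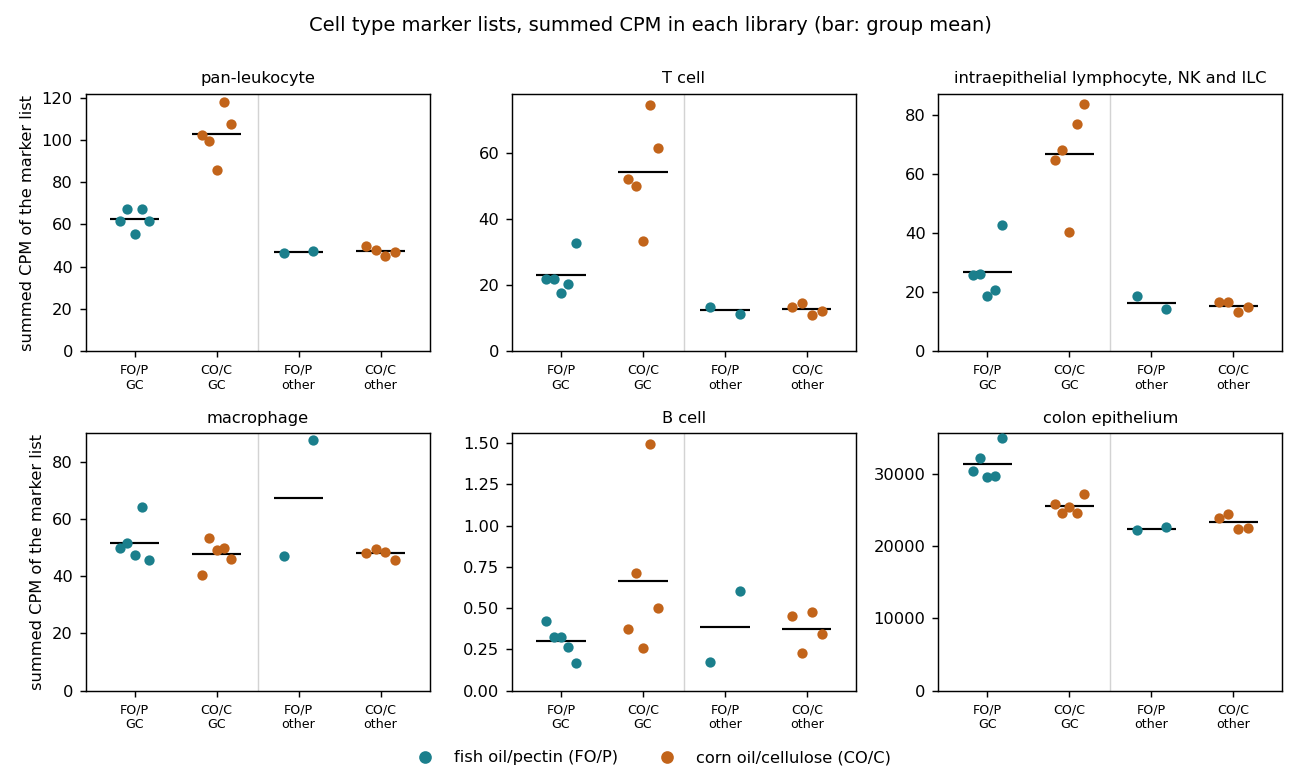
Summed CPM of 6 marker lists in every library, with fish oil/pectin left of corn oil/cellulose within each name form; bars are group means. In GC-named libraries the pan-leukocyte sums are 55.3 to 67.5 CPM with fish oil/pectin and 85.8 to 118 CPM with corn oil/cellulose, while the B cell sums stay under 1.5 CPM in all groups.

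A wider list of 94 genes of cell migration, holding none of the 10, was examined for the same contrasts, and 82 were measured. The low-count filter can keep a gene through 1 group alone. Falls are thus favoured among sparse genes that pass through the GC-named corn oil/cellulose libraries. In the GC-named libraries 54 of the 82 fell and 8 rose, with a median log2 difference of -0.81. Over all genes 21.6% fell and 22.2% rose, with a median of -0.00. In the other libraries 0 of the 82 were called by edgeR (11 had an unadjusted p under 0.05; DESeq2 called 1 higher and 0 lower, limma voom 4 higher and 2 lower). The difference between the diet effects was called for 18 as lower and 1 as higher, where 3.84% and 4.18% of all genes were. That count depended on single libraries: it was 1 without fish oil/pectin replicate 2, 5 without fish oil/pectin replicate 1, 10 without corn oil/cellulose replicate 3 and 30 without fish oil/pectin replicate 7. Over all genes, 6, 150, 194 and 808 were called lower in these fits, in that order, against 569 with every library. With 1 diet effect fitted over both name forms and no term for name form, 26 of the wider list were lower. The GC-named count of 54 lower was 29 where a stricter filter left 51 of the genes, 37 among female libraries alone, and 0 with the pan-leukocyte score as a covariate. Over all genes tested, those settings called lower 2202 of 14803, 2935 of 11553, 2233 of 13932 and 27 of 14803, against 3197 of 14803 in the main fit. Scaling by total counts moved the share of higher among all calls to 33.4%, against 50.7%, in GC-named libraries and to 15.8%, against 52.1%, in the difference.

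Of 19 measured actin genes 11 fell and 4 rose. Myo1g, a membrane-bound myosin of blood cells, fell by 1.67 ± 0.23 on the log2 scale (SE, adjusted p = 3.51e-05), with a mean of 1.00 ± 0.359 CPM in GC-named fish oil/pectin libraries and 3.22 ± 0.754 CPM in GC-named corn oil/cellulose libraries. Nckap1l, the blood cell subunit of the WAVE complex that activates Arp2/3, fell by 1.74 ± 0.25 (adjusted p = 5.64e-05), and Lcp1, the bundling protein L-plastin, fell by 0.80 ± 0.12 (adjusted p = 5.42e-05). The 4 that rose were Arpc1b, an Arp2/3 subunit, by 0.35 ± 0.08, Cotl1, a coactosin, by 0.51 ± 0.09, Capg, a filament-capping protein, by 1.25 ± 0.25, and Tmsb4x, which holds free actin, by 0.55 ± 0.12. They are named because they rose, having been chosen after their values were seen.

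Rac2, the Rac of blood cells, fell by 1.26 ± 0.18 (adjusted p = 5.57e-05), and Arhgef6, an exchange factor for Rac and Cdc42, fell by 1.82 ± 0.29 (adjusted p = 0.000118). The widely expressed Rhog rose by 0.49 ± 0.09 (adjusted p = 0.000266), with a mean of 61.1 ± 7.23 CPM in GC-named fish oil/pectin libraries and 43.6 ± 4.37 CPM in GC-named corn oil/cellulose libraries. Of 12 GTPase-activating proteins and Ras or Rap regulators 11 fell and none rose. Rasgrp1, which activates Ras in T cells, fell by 2.22 ± 0.24 (adjusted p = 1.14e-05), Arhgap25, which acts on Rac, by 2.08 ± 0.26 (adjusted p = 2.24e-05), and Arhgap45, a GTPase-activating protein of blood cells, by 1.70 ± 0.16 (adjusted p = 7.29e-06).

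Of 13 measured integrin and adhesion genes 10 fell and none rose. Itgae, the CD103 chain that holds intraepithelial lymphocytes to E-cadherin, fell by 1.74 ± 0.19 (adjusted p = 1.14e-05), with 2.88, 3.33, 2.53, 3.09 and 2.55 CPM in GC-named fish oil/pectin libraries, against 9.17, 8.61, 6.44, 13.9 and 9.74 CPM in GC-named corn oil/cellulose libraries. Itgal, the partner chain of Itgb2, fell by 1.82 ± 0.21 (adjusted p = 1.39e-05), with 0.780, 0.980, 0.807, 1.18 and 0.850 CPM in GC-named fish oil/pectin libraries, against 2.85, 2.97, 3.25, 4.21 and 2.87 CPM in GC-named corn oil/cellulose libraries. Neither gene's GC-named groups overlapped, and 13.6% of all genes were likewise lower in every GC-named fish oil/pectin library. Both genes were named for a low p in this contrast, which favours such a separation. Selplg, the selectin ligand PSGL-1, fell by 1.70 ± 0.19 (adjusted p = 1.17e-05). Of 10 integrin activation genes 6 fell and 1 rose. Talin, Tln1, which opens integrins from inside the cell, fell by 0.45 ± 0.06 (adjusted p = 2.92e-05), the Rap effector Rassf5 by 1.49 ± 0.24 (adjusted p = 0.000123) and the T cell adaptor Fyb by 1.06 ± 0.18 (adjusted p = 0.000182).

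Of 15 chemoattractant receptors 7 were measured and 6 of them fell. The filter favours such falls, since a sparse gene can pass it through the GC-named corn oil/cellulose libraries alone. S1pr1 reached 2.19 CPM there, but at most 0.420 CPM in GC-named fish oil/pectin libraries and 0.206 CPM in libraries with other names. Cxcr6, a receptor of tissue-resident lymphocytes, fell by 1.71 ± 0.29 (adjusted p = 0.000199), S1pr1, which guides lymphocytes out of tissue, by 2.29 ± 0.40 (adjusted p = 0.000237), and Cxcr3, a receptor of activated T cells, by 1.97 ± 0.45 (adjusted p = 0.00194). All 3 were low, with GC-named means of 0.548 ± 0.275, 0.281 ± 0.118 and 0.364 ± 0.361 CPM with fish oil/pectin and 1.80 ± 0.598, 1.38 ± 0.651 and 1.40 ± 0.406 CPM with corn oil/cellulose. Of 8 G proteins and RGS proteins 3 fell and 1 rose. Rgs2 fell by 0.74 ± 0.17 (adjusted p = 0.00215) and Rgs16 by 0.94 ± 0.24 (adjusted p = 0.00425), whereas Gnai2, the Gi alpha subunit on which RGS proteins act, rose by 0.46 ± 0.06 (adjusted p = 2.24e-05). Gnai2 averaged 322 ± 11.2 CPM in GC-named fish oil/pectin libraries and 234 ± 12.9 CPM in GC-named corn oil/cellulose libraries.

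**Figure D4:**
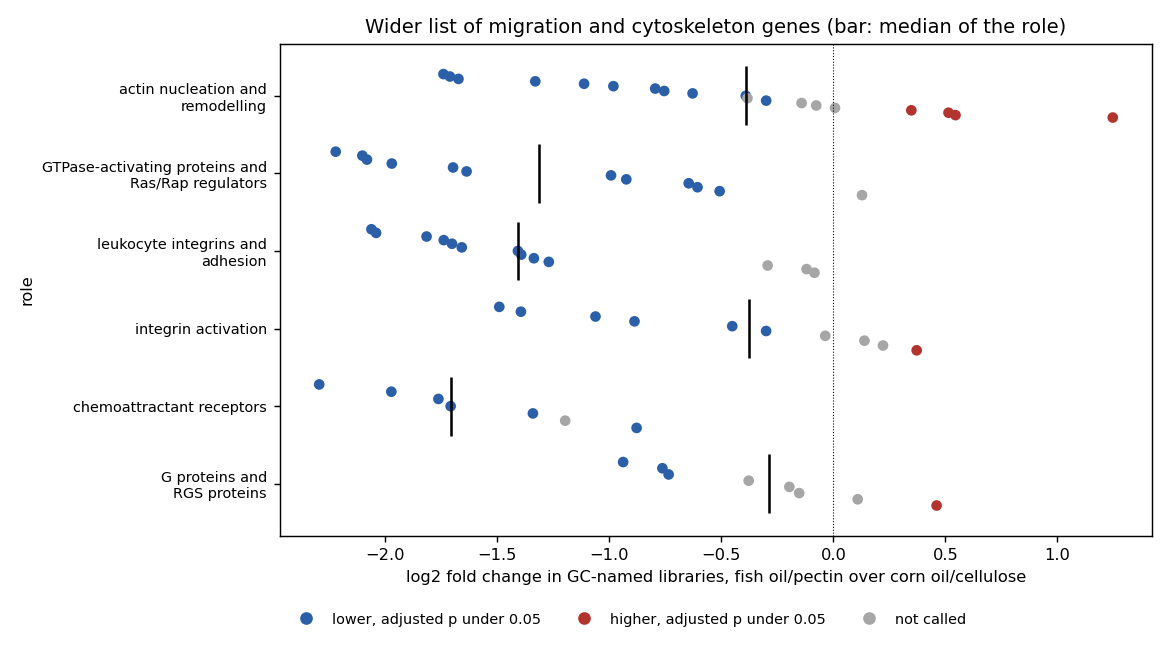
Log2 fold change in GC-named libraries, fish oil/pectin over corn oil/cellulose, of 69 measured genes of the wider list in 6 roles; colour marks the call and bars are medians. Role medians run from -1.71 for chemoattractant receptors to -0.29 for G proteins and RGS proteins, and 6 genes lie on the higher side of the threshold.

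Family members of the 10 genes were set beside them, 44 genes of which 38 were measured; 10 of the 44, Rgs2 among them, are also in the wider list. In GC-named libraries 17 fell and 2 rose, where 21.6% and 22.2% of all genes did, with a median of -0.31; in the other libraries 0 were called by edgeR (5 at an unadjusted p under 0.05; limma voom called 1 lower and 3 higher, DESeq2 0). Levels per kilobase differed widely between relatives. For each gene the relative with the most counts per kilobase is compared below, so that gaps in level are favoured by the choice. Other relatives lay nearer: over all 16 libraries Fmnl3 averaged 0.559 CPM per kb and Fmnl1 0.558. Itgb7 averaged 0.957 CPM per kb in GC-named fish oil/pectin and 2.55 in GC-named corn oil/cellulose libraries. Ezr, ezrin, the relative of Msn in epithelial microvilli, averaged 268 CPM per kb in GC-named fish oil/pectin libraries and 271 in GC-named corn oil/cellulose libraries, while Msn averaged 0.295 CPM per kb with fish oil/pectin and 1.33 with corn oil/cellulose there. The log2 difference of Ezr was -0.01 ± 0.08 (adjusted p = 0.906) and it was 0.060 without corn oil/cellulose replicate 7. Itgb1, the beta chain of matrix-binding integrins, averaged 71.5 CPM per kb with fish oil/pectin and 74.0 with corn oil/cellulose, while Itgb2 averaged 0.392 CPM per kb with fish oil/pectin and 1.64 with corn oil/cellulose. The log2 difference of Itgb1 was -0.05 ± 0.07 (adjusted p = 0.589), and it was 0.044 among male libraries alone. Coro1b, a coronin of many cell types, had 172 CPM per kb with fish oil/pectin and 152 with corn oil/cellulose (log2 difference 0.17 ± 0.07, adjusted p = 0.0512).

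Other relatives fell by smaller amounts than the listed gene of their family. Wasf2, of the WAVE complex, fell by 0.39 ± 0.08 (adjusted p = 0.00121), Dab2ip, a Ras GTPase-activating protein, by 0.34 ± 0.07 (adjusted p = 0.000778), Dock1 by 0.44 ± 0.09 (adjusted p = 0.000577) and Dock9 by 0.78 ± 0.12 (adjusted p = 6.5e-05). Dock6, the relative of Dock8, fell by 0.50 ± 0.12 (adjusted p = 0.00292), and Fmnl2 had -0.16 ± 0.16 (adjusted p = 0.425), which was 0.062 with 1 diet effect fitted over both name forms. In GC-named libraries each of the 10 genes had a lower log2 value than all its measured relatives. The 10 genes were chosen on this contrast and the relatives were not, so this order is favoured by the choice. Whether a listed gene's change differs from that of its relative was not tested. The difference between the diet effects was called lower for 1 of the 38, Rasal2, where 3.84% of all genes were, and for 0 to 5 with single libraries left out (0 without fish oil/pectin replicate 1 or 2, 5 without fish oil/pectin replicate 3).

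**Figure D5:**
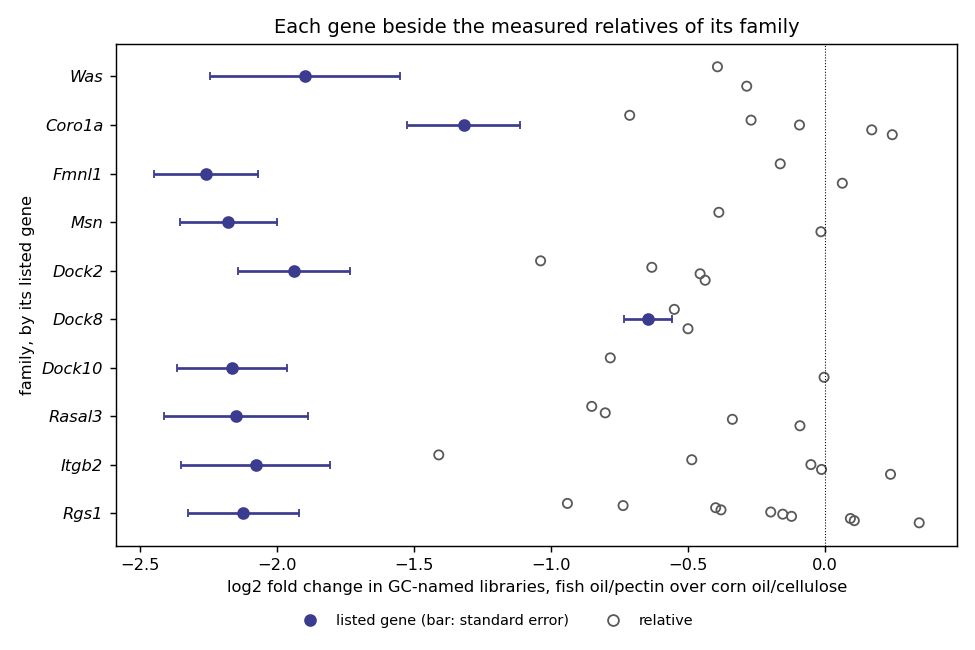
Log2 fold change in GC-named libraries, fish oil/pectin over corn oil/cellulose, of each of the 10 genes (filled, with standard error) and of the 38 measured relatives of their families (open). Each of the 10 genes, chosen on this contrast, lies left of its measured relatives. The gap is wide for Fmnl1, at -2.26 against -0.16 for Fmnl2, and narrow for Dock8, at -0.65 against -0.50 for Dock6.

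The 10 genes outside the list whose residual pattern over the 16 libraries, with group means removed, was most like the mean of the listed genes were Arhgap20 (r = 0.87), Cst7 (0.85), Ikzf3 (0.83), Smc3 (0.83), Lrrc66 (0.80), Sgcb (0.80), Ptprcap (0.80), Klrb1a (0.80), Dennd1c (0.80) and Twnk (0.79). They are given as a description with no test. Cst7, Ikzf3, Ptprcap and Klrb1a are known from lymphocytes and Smc3 and Twnk from all cells, and Dennd1c is in the wider list. The choice was fragile: of the 10, 1 stayed among the nearest without fish oil/pectin replicate 3, 2 without corn oil/cellulose replicate 7, 4 without fish oil/pectin replicate 5 or corn oil/cellulose replicate 8, 5 without fish oil/pectin replicate 7, and 6 without fish oil/pectin replicate 1 or 2.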

How the data were processed

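RNA of 16 mouse colonocyte samples was sequenced. The authors deposited raw counts of reads per gene symbol; reads were aligned with STAR 2.6.0a to GRCm38 and counted with HTSeq 0.11.1, per the submitters' processing notes. The sources used here give no strand setting for the counting. All count columns were mapped to samples by name, and 0 were left out. Replicates of a group differed by more than sampling noise (chi-square per degree of freedom 8.2 to 87 over 27 pairs).

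From the counts, edgeR 4.0.16 (R 4.3.3) kept 14803 of 54392 genes, holding 99.9% of counts, and fitted 1 mean per group with TMM scaling and its robust quasi-likelihood test. Contrasts were diet within GC-named libraries, diet within other libraries and the difference between them, with Benjamini-Hochberg adjustment over all genes and a threshold of 0.05. A fold change rests on the counts and is fish oil/pectin over corn oil/cellulose. DESeq2 1.42.0, limma 3.58.1 voom and other settings were alternatives. The fit was tested on simulated data. Sex was read from Y-linked counts (over 100 taken as male). Plots used matplotlib 3.10.9.

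The 10 genes and all lists were chosen with earlier results of these data known. Named from the wider list were, per role, up to 3 genes of lowest p in the GC-named contrast; from relatives, for each of the 10 genes, the one with the most counts per kilobase; and the 10 genes nearest in residual pattern. Exon lengths and coordinates came from GENCODE M21, which matched 98.9% of symbols. Some results are not reported here.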

Additional observations from a re-analysis of the deposited data

Results flagged for a closer look

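Among 120 gene and group combinations of 4 or 5 libraries, 6 held a library far from the others; chance alone gives about 1 in 20. Dock8 was lowest in GC-named corn oil/cellulose replicate 8, with 31.5 CPM where the other 4 libraries had 36.2 to 37.2 CPM, and it was the library in which 8 of the 10 genes were highest. Tln1 was highest in GC-named fish oil/pectin replicate 7, with 128 CPM, the next library having 112 CPM. Cxcr3 was highest in GC-named fish oil/pectin replicate 6, with 0.986 CPM, the next having 0.300 CPM. In corn oil/cellulose libraries with other names, Rassf5 had 1.15 CPM in replicate 2, the next having 0.900 CPM, and Fmnl2 had 5.62 CPM in replicate 2, the next having 4.26 CPM. In the same group Itgb1 had 352.55 CPM in replicate 1, the next having 329 CPM.

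For 11 named genes of the wider list the diet effect differed between the name forms by edgeR's quasi-likelihood test of that difference (log2, GC-named minus other, ± SE), as it did for 8.03% of all genes. These genes were named for a low p in GC-named libraries, which enter this difference, so that large values are favoured by the choice. The largest in size were Myo1g with -2.72 ± 0.43 (adjusted p = 0.00846), Rasgrp1 with -2.26 ± 0.47 (adjusted p = 0.0181), Itgal with -2.09 ± 0.38 (adjusted p = 0.0139) and Selplg with -2.02 ± 0.35 (adjusted p = 0.0121). In the other libraries these genes had 1.05 ± 0.36, 0.04 ± 0.39, 0.27 ± 0.31 and 0.32 ± 0.30, in that order, and none was called. Values above 0 in the other libraries thus enter these differences, most of all for Myo1g. Arhgap45 had -1.95 ± 0.28 (adjusted p = 0.00637), Itgae had -1.80 ± 0.32 (adjusted p = 0.0121) and Rac2 had -1.35 ± 0.33 (adjusted p = 0.0267). Fyb had -1.04 ± 0.30 (adjusted p = 0.0439), Lcp1 had -0.65 ± 0.19 (adjusted p = 0.0456), calls that were lost in 13 and 12 of the 16 fits that leave out 1 library, and Tln1 had -0.41 ± 0.10 (adjusted p = 0.0257). Gnai2 was the gene with a positive value, 0.38 ± 0.10 (adjusted p = 0.0332). All libraries with other names were male, against 3 of the 10 with GC names, so that sex and name form were partly mixed here. With sex as a covariate, 956 genes of the whole table were called for this difference. Without fish oil/pectin replicate 2 the whole table held 6 genes called for this difference, against 1188 with it.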

How the results depend on the processing

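Counts are given as lower then higher. In GC-named libraries the wider list gave 54 and 8 calls and the relatives 17 and 2. With 1 diet effect fitted over both name forms, rather than within GC-named libraries, an additive name form gave 1 relative higher. Such a fit with no name form term gave 26 and 8, and 10 and 1. With the additive form and a replicate block it gave 15 and 5, and 7 and 0 (3480 genes called in all). Replicate numbers shared by the diets deviated together with r of -0.12 to 0.26. Numbers 3 and 4 pair libraries of different name forms, so these values cannot exclude a shared block. Relatives higher numbered 1 in GC-named libraries fitted alone or at an adjusted p of 0.01, and 0 under total counts or in female libraries alone, where the lists otherwise gave 37 and 7, and 13 lower. Male libraries alone gave 24 and 2, and 6 and 1, from 1 fish oil/pectin library against 2 corn oil/cellulose ones, the lone library being assumed to vary like the others. These splits by sex were chosen after seeing the data. A minimum of 50 counts in 4 libraries gave 29 lower of 51 measured. A pan-leukocyte score as covariate gave 0 and 0 in both lists (96 genes called, against 6484).

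In the other libraries, main counts of 0 became 1 and 3 for the wider list with that name form fitted alone (900 genes called), 1 higher with DESeq2, and 2 and 4, with 1 and 3 relatives, with limma voom. The difference of diet effects gave 18 and 1, and 1 and 0 relatives. Relatives lower numbered 2 with RLE factors, 8 with total counts, 4 with the 50-count minimum and 6 with DESeq2. Total counts, and keeping any gene with a count, left 0 of the wider list higher. Voom gave 33 lower, and 6 and 1 relatives; the covariate 0 throughout; and an adjusted p of 0.01 gave 2 and 0, and 0 relatives.

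Leaving out each library in turn gave 50 to 55 and 8 to 9 for the wider list and 15 to 17 and 1 to 3 for relatives in GC-named libraries, and 0 to 1 and 0 to 2 for the wider list in the others. The difference gave 1 to 30 and 0 to 1 for the wider list, and 0 to 5 and 0 to 1 for relatives. The median of the 10 genes in GC-named libraries was -2.22 under total counts, -1.65 in male libraries and -0.90 with the covariate.

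Signs turned as follows (log2, GC-named). The additive form, no name form term and the replicate block are exceptions, as they fit 1 diet effect over both name forms. With the covariate, Itgb2 was 0.030, Coro1a 0.96, Nckap1l 0.68, Rac2 0.20, Rassf5 0.27, Cxcr3 0.36, Rgs2 0.39, Fmnl2 0.52 and Itgb1 0.24; in the difference, Itgb2 was 0.13, Rgs1 0.28, Coro1a 1.16, Lcp1 0.031 and Rac2 0.17. Fmnl2 was 0.062 with the additive form, 0.036 with no name form term, 0.052 with the replicate block and 0.028 in male libraries. Ezr was 0.025 with no name form term, 0.037 with voom and 0.12 in male libraries, and ran from -0.057 to 0.060 with single libraries left out, above 0 without fish oil/pectin replicate 3 or 7 or corn oil/cellulose replicate 6 or 7. Itgb1 was 0.044 in male libraries. The cause of these changes was not tested. Depth limits sparse genes such as Was, with 1 to 31 reads per library.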
